A study of Rattus norvegicus with 12 samples.

Results

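Angiogenesis and Rap1 signaling genes were followed in the lungs of rats instilled with silica. The members are genes that the study listed under the GO term angiogenesis or the KEGG Rap1 signaling pathway among its differentially expressed genes (DEGs) of day 28. A member also needed a probe named in the readable part of the DEG list, and the rule left out, by the start of the symbol (Itg, Mmp, Adam, Col, Lam, Thbs, Serpin, Cdh, Cxc, Ccl, Ccr, Csf and Il), several families of adhesion, matrix and cytokine genes, with a few further genes by name. This gave 39 genes with 46 probes, of 1099 genes with a named probe in all. The list for angiogenesis held 23 of them alone and that for Rap1 12 alone, and Angpt1, Flt1, Fgf18 and Rapgef3 stood in both. The angiogenesis list could be read for 57 of its 60 stated genes. Of the 95 distinct genes read from both lists, 44 had no named probe here and 12 had one but were excluded by the rule.

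Lung samples in 4 groups, each with n = 3, were measured on 1-colour Agilent arrays, all from male Wistar rats. The silica groups received 50 mg/mL silicon dioxide as an intratracheal instillation of 1 mL, and the saline groups received 1 mL of saline. Lungs were taken at day 14 or day 28. For the arrays of day 14 the titles and time points say 14 days while a protocol text shared by all arrays says 28 days, and they were taken as day 14. The study's methods describe the day 28 rats, whose lungs were picked for the arrays by their histology, and do not describe the day 14 rats, so p-values for day 14 measure the spread between samples that may be technical. The labels also call the silica dose 50 mg/kg. Ages are not given in the sources used here.

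New vessels sprout when endothelial cells answer growth factors such as VEGF, and mature vessels stay closed while angiopoietin-1 acts on the receptor Tie2. Rap1 is a small GTPase that exchange factors switch on in answer to cyclic AMP, calcium or diacylglycerol, and active Rap1 strengthens the junctions of endothelial cells and the adhesion of leukocytes through integrins. The lung is among the tissues richest in capillary endothelium, and several of the members are known mainly from endothelial cells.

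The contrast of day 28 chose the members, so its values are given as a description without a test. The rats of day 14 did not enter the DEG list, and silica was tested against saline there with limma over 33615 probes. The members, with the exclusions of the rule, were chosen with earlier results of these data known. Calls needed a difference of at least 2-fold whose p, after Benjamini-Hochberg adjustment, did not exceed 0.05. Values are log2 signals that were quantile normalized within each day (6 arrays), so levels are not compared between days or between genes. The share of probes well above background lay between 60.5% and 69.5% per array, none was saturated, and the 4 type 1 alveolar and 10 endothelial markers with a named probe were well above background in every saline array. At day 28 the 3 silica arrays shared a slide with saline replicate 1, and the other 8 arrays, those of day 14 among them, were on another slide.

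In the lungs of day 28, 27 members were lower with silica and 12 were higher. In the lungs of day 14, 11 members were called: Hmox1, Tgfbr1, Adora2b and Plau rose, and Cav1, Ramp2, Apln, Ptprb, Plce1, Sox18 and the frizzled-8-like gene LOC100909849 fell. The 38 members that could be tested all differed in the direction of day 28, 12 higher and 26 lower. The member not tested, Esm1, was well above background on 1 of 3 saline arrays and on no silica array of day 14. In whole lung RNA, fewer cells of a type and less RNA per cell cannot be told apart.

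The 11 called members are 28.9% of those tested, beside 4.9% of all probes tested at day 14 (2.59% called higher and 2.31% lower). The nearer background is the rest of the named DEG list, since it was chosen by the same contrast: 41.9% of its 1191 other tested probes were called in their day 28 direction. The day 14 difference had the sign of day 28 in 100% of the members and in 98.2% of those other probes. By adjusted p alone, 6 members were higher and 14 lower, which is 52.6% of the members, 55.8% of the other named probes and 9.36% of all probes (4.59% higher and 4.77% lower). The silica arrays lay wholly outside the saline arrays for 34 members, 10 above and 24 below, beside 34.4% of all probes (15.5% above and 18.9% below). This share was not counted over the other named probes, the nearer background, so it is not read as a trait of the members. At day 28 the silica arrays lay outside the saline arrays for all 39 members, beside 47.8% of all probes, as the rule required a difference there.

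The median member with a higher mean at day 28 differed by 0.88 at day 14 and 1.32 at day 28, and the median member with a lower mean by -0.94 and -1.24, while the median of all probes was -0.01 and -0.02. The DEG list required at least a 2-fold difference, and Sat1 at 1 and Rasgrp3 at -1.02 were the members nearest to that limit. Genes just outside it carry no name here.

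**Figure D1:**
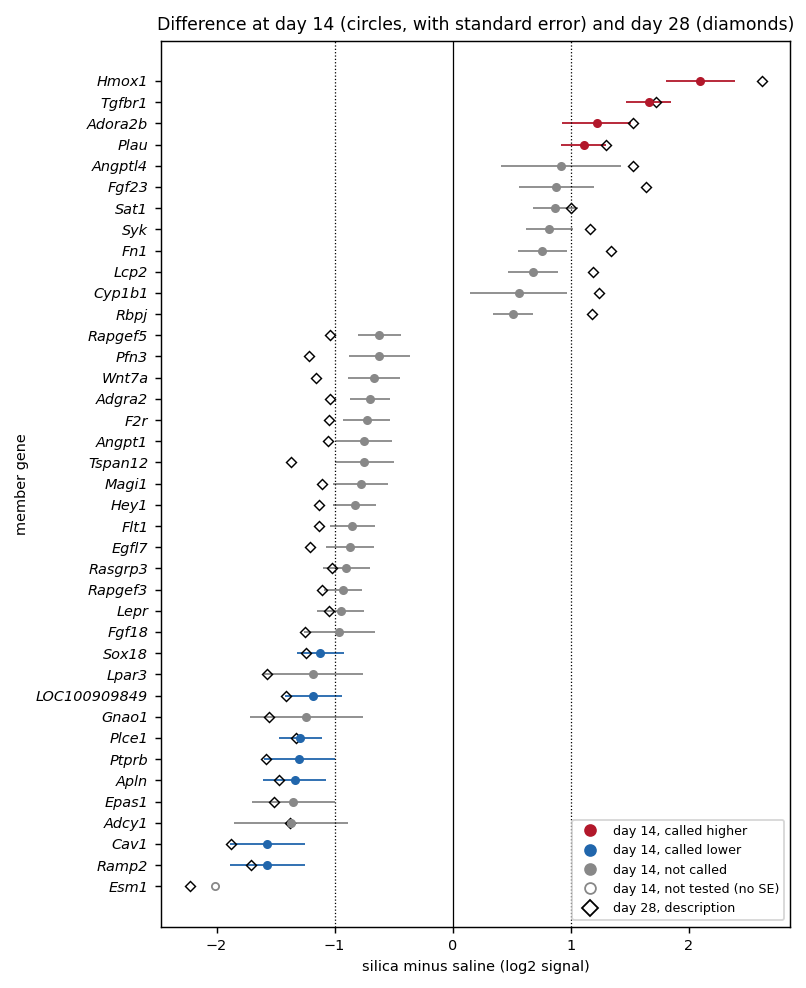
Silica minus saline in log2 signal (horizontal axis) for the 39 members (vertical axis), with circles for day 14 and their limma standard error, coloured where the member was called, and open diamonds for day 28. Dotted lines mark a 2-fold difference. All members lie on the same side of 0 at both days, from Hmox1 at 2.1 and 2.62 to Cav1 at -1.57 and -1.88 among those tested at day 14. Adcy1 is drawn with the brighter of its probes on each day.

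The calls at day 14 rested on few arrays. Without saline replicate 1, 2 or 3 of day 14, 0, 1 and 0 members were called lower and 3, 2 and 2 higher. Without silica replicate 1, 2 or 3, 4, 13 and 4 were called lower and 3 each time higher. Tgfbr1 and Hmox1 were called in all 6 of these fits, Plce1 in 4, Plau in 3, Cav1, Ramp2, Apln and Sox18 in 2 each, and Ptprb and LOC100909849 in 1 each. Adora2b was called in none of them.

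Silica replicate 1 of day 14 stood apart from the other silica arrays of its day. The members that were lower at day 28 lay on average -1.5 below the saline mean in that array, against -0.72 and -0.82 in silica replicates 2 and 3. The members that were higher at day 28 lay 1.41 above in it, against 0.85 and 0.76. It was the lowest silica array for 23 of 26 lower members and the highest for 10 of 12 higher members. At day 28 silica replicate 1 held the same place for 24 of 26 and 11 of 12, with mean differences of -1.67 and 1.7 against -1.19 and -1.02, and 1.33 and 1.33. The median SD of a member was 0.17 among the saline arrays and 0.36 among the silica arrays of day 14. Without silica replicate 1, the called members of day 14 were Hmox1, Plau and Tgfbr1 above and Apln, Cav1, Plce1 and Ramp2 below.

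**Figure D2:**
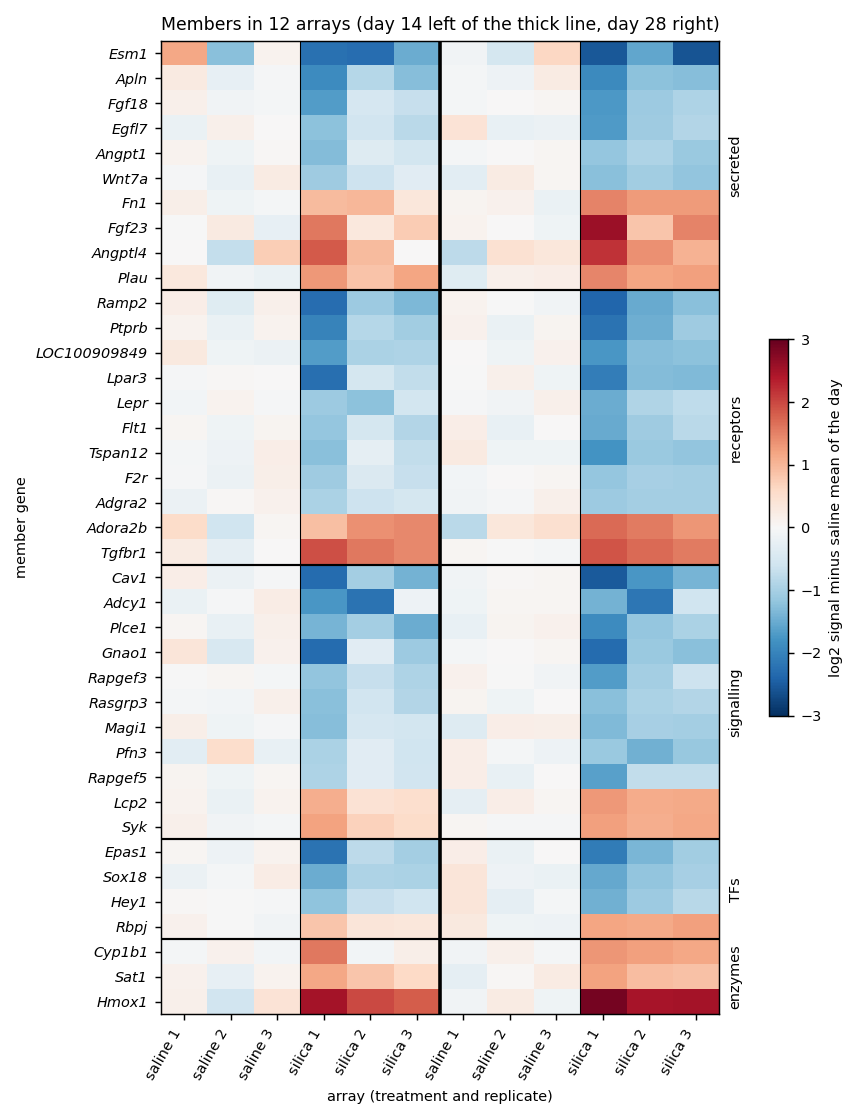
Log2 signal of each member (vertical axis, ordered by role) minus the saline mean of the day in each of the 12 arrays (horizontal axis), from blue (lower) to red (higher). The silica columns hold the deep colours on both days, and silica replicate 1 of each day is the deepest for most members, with a mean of -1.5 at day 14 and -1.67 at day 28 over the members with lower values.

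Ligands and other secreted factors made up 10 members, of which 1 was called higher and 1 lower at day 14. Angpt1 (probe A_42_P783735, chromosome 7) encodes angiopoietin-1, the ligand that keeps Tie2 active and vessels quiescent. Its log2 signal was 9.28, 9.04 and 9.21 in the saline arrays and 7.87, 8.78 and 8.62 in the silica arrays of day 14. At day 28 it was 9.44, 9.49 and 9.55 with saline and 8.33, 8.57 and 8.38 with silica. The groups did not overlap on either day, but the difference of day 14, -0.75 ± 0.24 (SE), had a limma adjusted p of 0.098 and was not called. At day 28 the difference was -1.06.

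Apln (A_42_P637189, chromosome X) encodes apelin, a peptide of sprouting endothelial tip cells that signals through the receptor Aplnr. It read 9.42, 8.9 and 9.1 in saline and 7.26, 8.29 and 7.86 in silica lungs at day 14, a fall of 2.54-fold (-1.34 ± 0.27, adjusted p 0.03, limma). The saline values of day 28 were 9.2, 9.11 and 9.51 and the silica values 7.37, 8.05 and 7.99, a difference of -1.47. Every silica lung was below every saline lung of its day.

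Fgf18 (A_44_P556319, chromosome 10 in RefSeq) is a fibroblast growth factor of lung development. It stood at 8.17, 7.91 and 7.95 in saline and 6.34, 7.51 and 7.32 in silica at day 14, and at 8.18, 8.24 and 8.3 against 6.51, 7.16 and 7.31 at day 28. The arrays separated on both days, and the day 14 difference of -0.96 ± 0.3 was not called (adjusted p 0.088, limma). Fgf23 (A_44_P146675, chromosome 4), a hormone of phosphate balance made chiefly in bone, was dim. Its saline values were 4.15, 4.43 and 3.93 at day 14, with 2 of 3 arrays well above background, and its silica values were 5.75, 4.49 and 4.92. At day 28 saline gave 4.42, 4.33 and 4.17 and silica 6.88, 5.15 and 5.8. Silica values were above saline values on both days, with a difference of 1.64 at day 28 and 0.88 ± 0.32 at day 14 (adjusted p 0.13, limma).

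Plau (A_44_P260036, chromosome 15) encodes urokinase, the protease that turns plasminogen into plasmin. At day 14 saline lungs read 9.06, 8.63 and 8.53 and silica lungs 10.03, 9.59 and 9.92, a rise of 2.15-fold (1.11 ± 0.19, adjusted p 0.022, limma). Saline lungs of day 28 gave 8.73, 9.25 and 9.28 and silica lungs 10.56, 10.28 and 10.33. No silica array reached down to the saline range, and the day 28 difference of 1.3 was 1.66 against the saline array on the same slide and 1.13 against those on the other slide.

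Angptl4 (A_64_P088382, chromosome 7), an angiopoietin-like inhibitor of lipoprotein lipase, varied more between lungs. It was 6.83, 6.1 and 7.55 in saline and 8.66, 7.76 and 6.82 in silica at day 14. The groups overlapped there, and the difference of 0.92 ± 0.51 was not called (adjusted p 0.3, limma). At day 28 values of 5.97, 7.21 and 7.08 in saline and 8.92, 8.12 and 7.8 in silica did not overlap, and the difference of 1.53 was 2.32 against the saline array on the same slide and 1.14 against the others.

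Esm1 (A_43_P12257, chromosome 2), the endothelial proteoglycan endocan, was near background. It read 5.08, 2.65 and 4.01 in saline and 1.67, 1.63 and 2.41 in silica at day 14. In saline lungs of day 28 it read 4.38, 3.95 and 5.11, all well above background, and 1.94, 2.92 and 1.89 in silica lungs, none of them above it. The silica value of day 28 is therefore a bound, and Esm1 was at least 1.12-fold lower there. The rest of the secreted factors were not called at day 14. Egfl7, a matrix protein of endothelial cells, differed by -0.87 at day 14 and -1.21 at day 28, the Wnt ligand Wnt7a by -0.67 and -1.16, and the matrix protein fibronectin, Fn1, by 0.76 and 1.34. Of these, Egfl7 alone passed the adjusted p (0.038, limma) at day 14.

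Receptors and their partners gave 2 members called higher and 3 called lower of 11. Flt1 (A_64_P201730, chromosome 12) encodes the VEGF receptor VEGFR1. Saline lungs had 9.74, 9.55 and 9.77 at day 14 and 10.53, 10.1 and 10.33 at day 28. Silica lungs had 8.54, 9.17 and 8.8 at day 14 and 8.81, 9.25 and 9.5 at day 28. Each silica lung lay below the saline lungs, and the day 14 difference of -0.85 ± 0.19 passed the adjusted p (0.036, limma) but not the 2-fold limit.

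Ptprb (A_44_P604787, chromosome 7) encodes VE-PTP, the endothelial phosphatase that restrains Tie2. Its signal at day 14 was 9.34, 9.04 and 9.35 with saline and 7.24, 8.39 and 8.19 with silica. It fell by 2.47-fold (-1.3 ± 0.3, adjusted p 0.039, limma). With saline at day 28 it was 9.66, 9.34 and 9.62, and with silica 7.33, 8.07 and 8.48, a difference of -1.58. Ramp2 (A_64_P260088, chromosome 10), the partner that turns the calcitonin-receptor-like receptor into an adrenomedullin receptor, gave 12.13, 11.58 and 12.1 in saline and 9.65, 10.86 and 10.6 in silica at day 14. It fell by 2.96-fold (-1.57 ± 0.32, adjusted p 0.031, limma), and at day 28 silica values of 9.85, 10.71 and 10.98 lay below saline values of 12.34, 12.21 and 12.13. For both genes silica replicate 1 was the lowest lung on each day.

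LOC100909849 (A_44_P1114445, chromosome 17), a frizzled-8-like Wnt receptor gene that was not matched in RefSeq, had saline values of 7.84, 7.4 and 7.37 and silica values of 5.86, 6.59 and 6.61 at day 14. It fell by 2.27-fold (-1.18 ± 0.24, adjusted p 0.031, limma). At day 28 saline gave 7.67, 7.53 and 7.81 and silica 5.93, 6.4 and 6.45, again with no overlap. Lpar3 (A_44_P1083672, chromosome 2), a receptor of lysophosphatidic acid, read 7.58, 7.64 and 7.62 in saline and 5.34, 7.08 and 6.88 in silica at day 14. Its saline values hardly varied while silica replicate 1 lay far below the other silica lungs, and the difference of -1.18 ± 0.42 was not called (adjusted p 0.12, limma). At day 28 Lpar3 read 7.91, 8.08 and 7.79 in saline and 5.86, 6.62 and 6.6 in silica, a difference of -1.57.

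Tgfbr1 (A_44_P1086225, chromosome 5), the type I receptor of TGF-β, rose by 3.15-fold at day 14 (1.66 ± 0.19, adjusted p 0.0078, limma). Saline lungs read 9.15, 8.63 and 8.92 and silica lungs 10.84, 10.48 and 10.35. At day 28 saline lungs read 9.18, 9.1 and 9.04 and silica lungs 10.99, 10.81 and 10.67. The lowest silica lung was over 1 log2 unit above the highest saline lung on each day, and the difference of 1.72 at day 28 was close in size to that of day 14.

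Adora2b (A_44_P1011716, chromosome 10) encodes the A2B adenosine receptor, which raises cyclic AMP. At day 14 its saline values were 6.69, 5.56 and 6.21 and its silica values 7.05, 7.51 and 7.58, a rise of 2.33-fold (1.22 ± 0.29, adjusted p 0.045, limma). Day 28 gave 4.85, 6 and 6.14 with saline and 7.35, 7.22 and 6.99 with silica. The saline lungs spread over more than 1 log2 unit on both days, and the day 28 difference of 1.53 was 2.34 against saline replicate 1, on the same slide, and 1.12 against the other saline arrays.

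The remaining receptors were all lower and none was called. Lepr, the leptin receptor, differed by -0.95 at day 14 and -1.05 at day 28, and Adgra2, the adhesion receptor GPR124 of brain vessels, by -0.7 and -1.04. Both passed the adjusted p at day 14 (0.032 and 0.044, limma). F2r, the thrombin receptor PAR1, differed by -0.73 and -1.05, and Tspan12, a tetraspanin of norrin and frizzled signaling, by -0.75 and -1.37, and neither passed it (adjusted p 0.061 and 0.11, limma).

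Exchange factors, G proteins, enzymes and scaffolds of signaling made up 11 members, of which 2 were called lower and none higher. Rapgef3 (A_43_P15424, chromosome 7) encodes Epac1, which switches on Rap1 when it binds cyclic AMP. Its signal at day 14 was 7.46, 7.54 and 7.41 with saline and 6.28, 6.79 and 6.55 with silica. At day 28 it was 8.01, 7.87 and 7.77 with saline and 6.2, 6.85 and 7.26 with silica. All silica values lay below all saline values of their day, and the day 14 difference of -0.93 ± 0.16 passed the adjusted p (0.021, limma) while staying short of 2-fold. Among the other exchange factors, Rasgrp3, which answers diacylglycerol, differed by -0.9 at day 14 (adjusted p 0.036, limma) and -1.02 at day 28, and Rapgef5 by -0.62 (adjusted p 0.076, limma) and -1.04.

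Plce1 (A_44_P153774, chromosome 1), a phospholipase C that also acts as an exchange factor for Rap1, was well above background on every array of day 14. It read 5.86, 5.57 and 5.96 in saline and 4.4, 4.79 and 4.31 in silica at day 14, and 5.63, 5.94 and 5.98 against 3.96, 4.7 and 4.9 at day 28. The arrays did not overlap on either day, and Plce1 fell by 2.45-fold at day 14 (-1.29 ± 0.18, adjusted p 0.013, limma). At day 28 the difference was -1.33, with 2 of 3 silica arrays well above background.

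Cav1 (A_64_P005754, chromosome 4) encodes caveolin-1, the coat protein of caveolae, which are abundant in lung endothelium and type 1 alveolar cells. Saline lungs gave 12.42, 12.06 and 12.2 and silica lungs 9.92, 11.22 and 10.82 at day 14. Saline lungs of day 28 gave 12.34, 12.47 and 12.51 and silica lungs 9.93, 10.7 and 11.04. Silica was lower in every lung, the fall at day 14 was 2.98-fold (-1.57 ± 0.32, adjusted p 0.029, limma), and the difference at day 28 was -1.88.

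Adcy1, an adenylyl cyclase, had probes that were called differently. The probe brighter at day 14, CUST_R2_08435, differed by -1.37 ± 0.48 and was not called (adjusted p 0.12, limma), while CUST_R2_08437 differed by -1.79 ± 0.42 and was called lower (adjusted p 0.042, limma). On the silica arrays of day 14 the first was well above background on 1 of 3 and the second on 2 of 3. Both entered the test only through the saline arrays, so these differences reach down to background. At day 28 the first was above background on no silica array and at least 2.3-fold lower. The second differed by -1.38, with 1 of 3 silica arrays well above background. None of the remaining signaling members was called. Gnao1, a G protein subunit, differed by -1.24 at day 14 and -1.56 at day 28, Magi1, a scaffold of cell junctions, by -0.78 and -1.11, and Pfn3, a profilin, by -0.62 and -1.22. Gnao1 was well above background on 2 of 3 silica arrays of each day, and its groups overlapped at day 14. The leukocyte signaling genes went the other way. The kinase Syk differed by 0.82 at day 14 (adjusted p 0.044, limma) and 1.16 at day 28, and the adaptor Lcp2 by 0.68 (adjusted p 0.084, limma) and 1.19.

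Transcription factors gave 1 called member of 4. Sox18 (A_42_P623913, chromosome 3), a factor of endothelial and lymphatic fate, read 10.59, 10.71 and 10.99 in saline and 9.28, 9.84 and 9.81 in silica at day 14. It fell by 2.18-fold (-1.12 ± 0.2, adjusted p 0.022, limma). Day 28 saline values of 11.51, 11 and 10.95 lay above silica values of 9.62, 9.97 and 10.15, and the difference of -1.24 was -1.6 against the saline array on the same slide. Epas1, the hypoxia-inducible factor HIF-2α, differed by -1.35 ± 0.35 at day 14 and -1.51 at day 28, and with an adjusted p of 0.056 (limma) at day 14 it was not called. Hey1, a target of Notch signaling, differed by -0.83 (adjusted p 0.036, limma) and -1.13. The probes named for Rbpj, the DNA-binding partner of Notch, were higher, by 0.51 (adjusted p 0.11, limma) and 1.18 with the brightest of its 3 probes, and the others differed by 0.64 each at day 14. The probe table puts 2 of these probes on chromosome 5 and RefSeq puts Rbpj on chromosome 14, so they may read a copy of the gene, and these values are uncertain as a measure of Rbpj itself.

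Because Epas1 binds hypoxia response elements and Rbpj binds its own motif, the 250 bases before the RefSeq start (GRCr8) were searched on either strand for ACGTG, the core of hypoxia response elements, and for TGGGAA, the core letters bound by Rbpj. Of the 27 members with a promoter in the table, 7 held ACGTG (Angptl4, Cav1, F2r, Lpar3, Magi1, Pfn3 and Rbpj, the last at its RefSeq place on chromosome 14), and 16.6% of all 33469 promoters did. TGGGAA was found in 7 members (Cav1, Egfl7, Epas1, Pfn3, Rbpj, Syk and Tspan12) and in 22.1% of all promoters. A member counts if any of its promoters matched, and Cav1, Egfl7, Rapgef5 and Rbpj had a further promoter. The shares are over single promoters, so the counts and shares are not of the same unit. AACAAT, a SOX motif, was in Cyp1b1 alone of the members searched and in 10.3% of all promoters. TGACNNNGC, the antioxidant response element, was in F2r alone of them and in 10.1%. No promoter was at hand for Hmox1, Sox18, Hey1, Ramp2, Ptprb, Plce1, Angpt1, Fn1, Fgf23, Lcp2, Adgra2 and LOC100909849. These members were not searched. A run that fits TGACNNNGC can hold ACGTG within it, and CACGTG counts as a match on each strand. Members with higher and members with lower silica means held these letters. The promoters of Cav1, which held matches to both of the first motifs, of Epas1 and of Angptl4 are shown from 5′ to 3′ on the strand of the gene, with the matched letters in capitals, where CACGT is the hypoxia core read on the opposite strand.
Cav1 (chr4:46606288-46606537, plus strand): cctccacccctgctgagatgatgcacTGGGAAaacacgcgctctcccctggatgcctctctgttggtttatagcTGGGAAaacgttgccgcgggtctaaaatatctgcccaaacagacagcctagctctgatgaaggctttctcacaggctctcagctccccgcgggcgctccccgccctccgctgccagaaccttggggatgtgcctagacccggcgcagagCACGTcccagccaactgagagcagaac
Epas1 (chr6:13624730-13624979, minus strand): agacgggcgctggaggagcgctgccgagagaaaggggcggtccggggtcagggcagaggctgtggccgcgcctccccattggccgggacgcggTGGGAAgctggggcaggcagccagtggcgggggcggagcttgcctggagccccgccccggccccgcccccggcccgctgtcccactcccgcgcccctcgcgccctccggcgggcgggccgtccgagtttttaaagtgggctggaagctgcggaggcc
Angptl4 (chr7:15258682-15258931, minus strand): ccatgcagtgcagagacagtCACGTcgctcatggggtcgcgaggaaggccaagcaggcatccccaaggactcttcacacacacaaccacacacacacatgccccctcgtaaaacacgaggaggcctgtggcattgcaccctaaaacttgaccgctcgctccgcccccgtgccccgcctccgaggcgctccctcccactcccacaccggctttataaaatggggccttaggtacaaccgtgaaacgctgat
The matches of Cav1 begin 224, 176 and 27 bases before its start, that of Epas1 157 bases before and that of Angptl4 230 bases before. Cav1 has a further start in RefSeq whose promoter held neither motif. A match is a run of letters and was not tested as a binding site.

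Enzymes gave the largest difference among the members. Hmox1 (A_43_P11472, chromosome 19), the heme oxygenase that breaks down heme and is induced by oxidative stress, read 9.39, 8.65 and 9.63 in saline and 11.73, 11.2 and 11.05 in silica at day 14. It rose by 4.29-fold (2.1 ± 0.29, adjusted p 0.012, limma). At day 28 it read 9.39, 9.73 and 9.35 in saline and 12.37, 11.97 and 11.98 in silica, a difference of 2.62. The lowest silica lung was more than 1 log2 unit above the highest saline lung on both days. Sat1, which acetylates polyamines, was higher by 0.87 at day 14 (adjusted p 0.036, limma) and by 1 at day 28. Cyp1b1, a cytochrome P450 of xenobiotics and steroids, was higher by 0.56 at day 14 (adjusted p 0.43, limma) and by 1.24 at day 28, and of the silica lungs of day 14 replicates 1 and 3, at 8.57 and 7.15, lay above the saline lungs and replicate 2, at 6.89, lay below them.

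**Figure D3:**
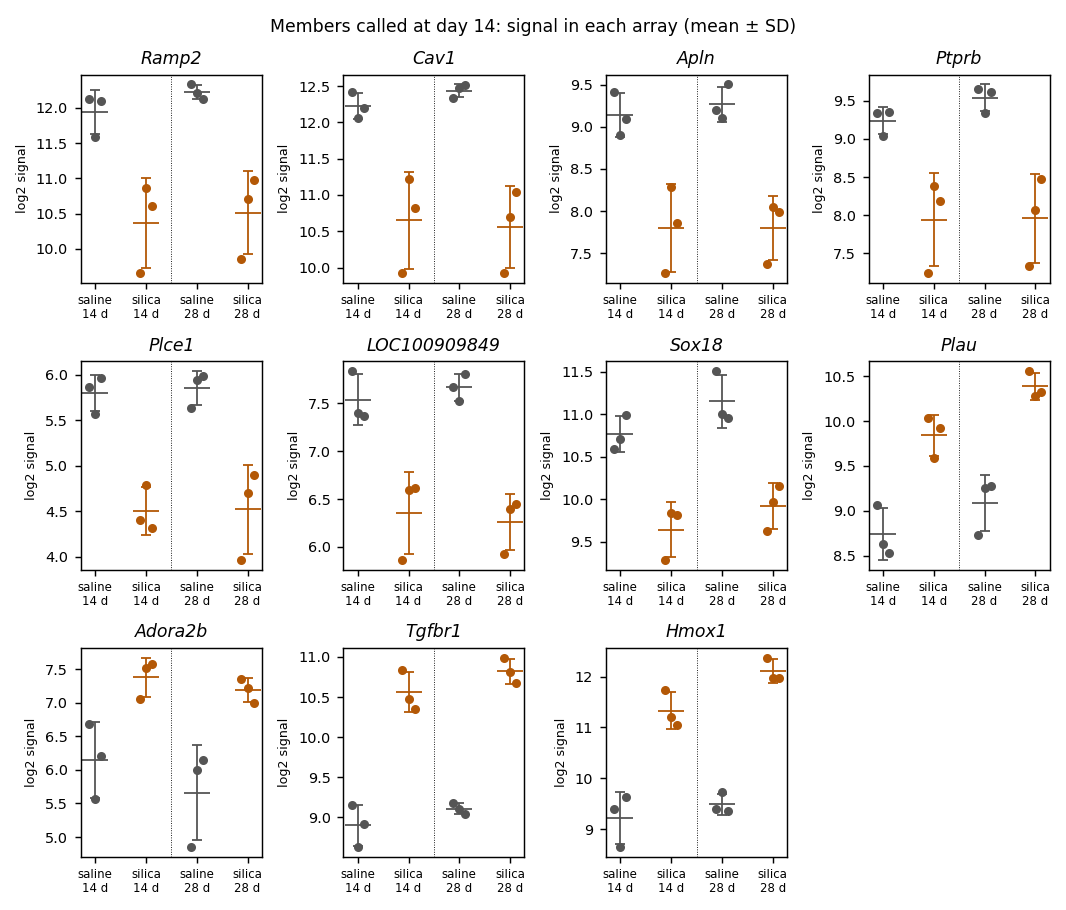
Log2 signal (vertical axes, a separate scale in each panel) of the 11 members called at day 14 in each of the 12 arrays, with points for lungs in the order of replicates 1 to 3 and bars for the mean ± SD of 3. Each day was normalized by itself, so the dotted line parts values that are not compared. Silica lungs lie above all saline lungs of the day for Plau, Adora2b, Tgfbr1 and Hmox1 and below them for the other 7.

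The members of the angiogenesis list alone held 3 called higher and 6 called lower of 22 tested, those of the Rap1 list alone 1 and 1 of 12, and those of both lists none of 4, though 2 of these (Flt1 and Rapgef3) were lower by limma's adjusted p alone. These counts are a description, since the lists differ in size and no difference between them was tested. For comparison, other genes of the pathways were taken from lists written with results of these data known. A probe name comes only with the DEG list of day 28, so the genes that can be followed were chosen by the same contrast. Of 51 further angiogenesis genes, 11 had a named probe, of which Mmp14 rose and Tek, Efnb2, Cdh5 and Clec14a fell, and their median difference at day 14 was -0.94. Tek, the Tie2 receptor on which Angpt1 and Ptprb act, differed by -1.45 ± 0.33 (adjusted p 0.041, limma). Of 46 further Rap1 genes, 8 had a named probe, of which Tiam1 and Itgam rose and Rapgef4, the exchange factor Epac2, fell, with a median difference of -0.15. Rapgef4 differed by -1.45 ± 0.28 (adjusted p 0.026, limma), and the members Rapgef3, Rapgef5 and Rasgrp3 were lower too. The 12 genes of the study's lists that the rule left out are all among these 11 and 8 genes, and they hold 3 of the genes just named as risen (Mmp14, Tiam1 and Itgam) and 2 named as fallen (Tek and Rapgef4). At day 14, 7 of the 12 were higher and 5 lower. Their median difference was 0.72 at day 14 and 1.29 at day 28, against -0.76 and -1.11 for the members. Of the left-out genes, Fgf1 was not called by its brighter probe (-1.44, adjusted p 0.073, limma), while its dimmer probe was called lower (-1.31, adjusted p 0.03, limma).

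Markers of cell types could be followed only where the day 28 DEG list names a probe, so each had differed at day 28. Of the named probes outside the members, 98.2% kept that sign at day 14 and 41.9% were called in that direction. The marker values are therefore a description. Of 18 endothelial markers, 10 had a named probe, all were lower with silica at day 14 and 7 were called lower, among them Cdh5, Plvap and Icam2. Their summed signal ranged from 37200 to 45800 over the saline lungs of day 14 and from 11800 to 24400 over the silica lungs, and from 46500 to 55200 and from 13300 to 24900 at day 28. Linear signals were summed, so the brightest genes, Cdh5 and Ace among these markers, weigh most in such a sum. The lowest endothelial sum of each day was in silica replicate 1, the lung in which most of the members were lowest. This was not particular to endothelial markers. The sums of type 1 alveolar, smooth muscle and red cell markers were also lowest in that lung on both days. Those of macrophage, fibroblast and lymphocyte markers were highest in it. The 4 type 1 alveolar markers with a named probe, of 9, were lower too and not called by their brightest probe, though a dimmer probe of Clic5 was called lower (-1.41, adjusted p 0.026, limma), with sums of 12400 to 15200 in saline and 3480 to 9100 in silica at day 14. Of 17 macrophage markers, 11 had a named probe and 9 were called higher, and their sum went from 4380 to 6950 in saline to 27000 to 43000 in silica lungs. Tek, Cdh5, Clec14a and Cd34 count both as endothelial markers and as further angiogenesis genes. Itgam counts both as a macrophage marker and as a further Rap1 gene. The macrophage marker Msr1 was well above background on 1 of 3 saline arrays at day 14 and on no saline array at day 28, so its rise starts near background. Smooth muscle markers (2 of 8) and fibroblast markers (2 of 8) gave no call, both red cell markers with a probe (of 7) were called lower, and the 1 lymphocyte marker of 11 was not called. Markers of neutrophils and type 2 alveolar cells had no named probe. The part of these cell types in the members' differences was not tested.

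**Figure D4:**
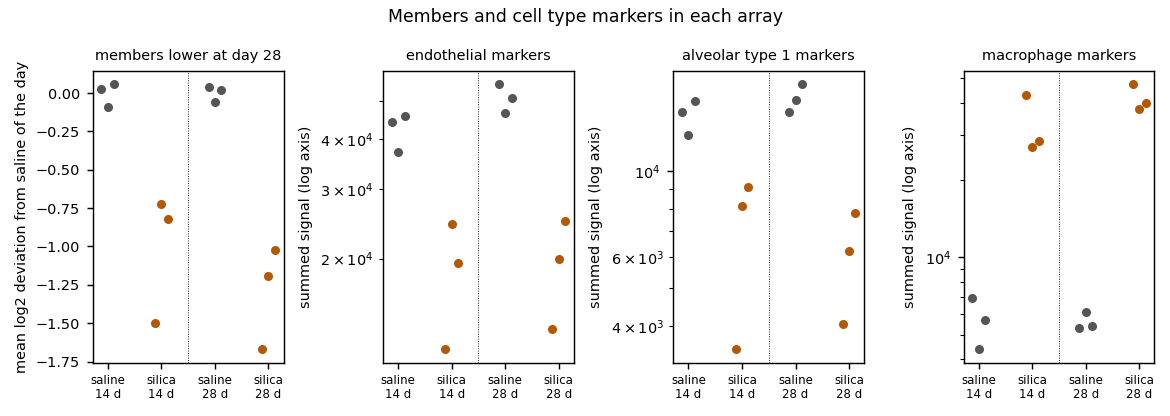
Mean log2 deviation from the saline mean of the day over the 26 members lower at day 28 (Esm1 left out), and the summed linear signal of endothelial, type 1 alveolar and macrophage markers (log axes), with 1 point per array in the order of replicates 1 to 3. In each silica group replicate 1 is lowest for the members and for the endothelial markers, at -1.5 and 11800 at day 14 and at -1.67 and 13300 at day 28. Replicate 1 is also lowest for the type 1 alveolar markers and highest for the macrophage markers in each silica group.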

How the data were processed

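Lung RNA was hybridised on Agilent 1-colour arrays. Per the labels, scans were read with Feature Extraction 10.7.1.1, and the authors deposited processed spot intensity values, corrected for background, and a table of log2 signals that their methods describe as quantile normalized. Here, 1439 control spots per array and outlier spots were left out, spots were averaged to 51255 probes, and log2 values were quantile normalized within each day (6 arrays). Probes well above background on all 3 arrays of a group were tested with limma 3.58.1 (R 4.3.3), silica against saline of day 14, with Benjamini-Hochberg adjustment over all 33615 probes. A gene is given by its brightest probe of the day. No pair of arrays held identical values. The number of arrays limits the precision. Probe names come from the readable part of the study's DEG list (1279 of 2275 rows), which also holds the authors' fold changes and p-values, not used here. Promoters come from RefSeq (GRCr8). The members and all gene lists were chosen with earlier results of these data known. Values in every array are given for the members of both lists, those called at day 14 and the 5 with the largest day 28 difference in each direction. The limma step was tested on simulated data. Alternatives covered the scaling, background correction, dim-probe filter, replicate block, test and the leaving out of each array.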

Additional observations from a re-analysis of the deposited data

How the results depend on the processing

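The 12 higher and 27 lower members of day 28 kept those counts under every scaling, slide and left-out array that was run. The silica and saline arrays of day 28 overlapped for no member, so the slide and left-out array settings could hardly change these counts. At day 14, 38 of 38 tested members kept their direction in all settings with the same filter. The day 14 counts of calls moved more. From 4 members called higher, 7 lower and 1647 probes in all, normexp background correction gave 708 probes, no filter on dim probes gave 1 higher, 0 lower and 396 probes, and the adjusted p alone gave 14 lower and 3147 probes. The methods' t-test gave 4 higher, 8 lower and 1848 probes at its threshold, and 0 higher, 0 lower and 1 probe after Benjamini-Hochberg. Leaving out 1 array gave 2 to 3 members higher, 0 to 13 lower and 281 to 2338 probes. The replicate block gave 3 members higher, 3 lower and 1534 probes, and the replicate numbers are not taken as a pairing, since same-numbered arrays deviated together with correlations of 0.02, -0.17 and 0.06. Over single members, 462 differences of day 14 kept their status under the call of 2-fold and adjusted p together, 55 lost the call and 12 gained it, and none reversed, while by the adjusted p alone 109 lost it and 26 gained it. Only members called in the main fit could lose the call, and most of the 462 were of members not called there. At day 28, 439 differences stayed within 1 SD and 29 moved, 15 of them against the saline array on the same slide and 14 under normexp. The cause of these shifts was not tested. Dim probes such as Esm1 give bounds.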
